A study of Chrysanthemum x morifolium with 4 samples.

Results

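Leaves of chrysanthemum that had been frozen after a spell of cold acclimation were compared with leaves frozen without it, across the unigenes of 1 RNA-seq library per side. A unigene is a transcript pieced together from the reads and known here by its assembly identifier. The members are the unigenes with at least 10 counts summed over the 4 libraries of the series, which were 48004 of the 93837 listed (51.2%). Of these, 232 had no count in either frozen library, so 47772 could be compared. At the edge of this limit, 1708 unigenes had 10 counts in all and 24 of them were called different by the rule given below, and 2020 had 9 counts in all and 24 of them would have been called.

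All plants were of the cultivar Jinba (Chrysanthemum x morifolium). They were raised from tissue culture for 20 days with a 16 h photoperiod at 25 °C by day and 22 °C by night, then moved to pots and kept for 3 days at normal conditions. The acclimated-frozen group had 24 h at 4 °C followed by 4 h at -4 °C, and the directly frozen group had 4 h at -4 °C with no earlier cold. The other groups, used here to place the levels and to compare acclimated with control leaves before freezing (the unfrozen pair), were an untreated control and an acclimated group with 24 h at 4 °C and no freezing. Each library came from the mixed leaves of 3 replicates. The spread between plants was therefore not measured, no difference below has a p-value, and every interval covers counting error only. The frozen groups also differ in how long the plants had been under treatment, which cannot be told apart from acclimation itself.

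Many temperate plants become more tolerant of freezing after days or hours at low temperatures above freezing. In Arabidopsis this acclimation works in part through the CBF (DREB1) transcription factors, which are induced by cold and switch on a regulon of cold-responsive genes, among them genes for dehydrins and other protective proteins. Freezing itself withdraws water from cells as ice forms outside them, and so overlaps with drought and membrane injury in the genes it calls on. The unigenes carry no gene names in the table. The labelled tissue could not be checked against markers, no gene family can be named, and the results describe unigenes by level, length and behaviour in the other libraries.

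The acclimated-frozen library held 14024558 counts and the directly frozen library 14345704 counts. With 3 counts taken as the limit that a 0 allows, a unigene without counts could stand at up to 0.214 CPM (counts scaled to a common library total) in the first and 0.209 CPM in the second. The directly frozen library stood apart from the other 3 in how many unigenes it reached. It had at least 1 count for 70769 unigenes of the whole table, against 64284 in the acclimated-frozen library, 64379 in the acclimated library and 64898 in the control. With each library thinned to 14024558 counts the expected numbers were 70588 in the directly frozen library and 63701 to 64284 in the others. Among the members, 1244 had no count in the directly frozen library and 2745 had none in the acclimated-frozen one. The median member stood at 2.67 FPKM (the authors' count per length and library total) without acclimation and at 1.93 FPKM with it.

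The balance of directions depends on the scaling. Counts of both frozen libraries were set on a common scale by TMM, a trimmed mean of log ratios, and the results are given beside those from total counts and from median-of-ratios factors. Relative to TMM, total counts moved every log2 ratio of acclimated-frozen over directly frozen by -0.26, and median-of-ratios factors moved it by 0.10. Over all members the median log2 ratio was -0.11 with TMM, -0.37 with total counts and -0.0016 with median-of-ratios factors. The part that the wider reach of the directly frozen library has in these shifts was not tested.

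The frozen libraries differed in both directions. A call, higher or lower, was made where the exact (Clopper-Pearson) 95% interval of the ratio of scaled counts lay wholly beyond 2-fold. With TMM, 2751 unigenes were called higher after acclimation (5.76% of those compared) and 2323 were called lower (4.86%). With total counts the numbers were 1947 higher (4.08%) and 3639 lower (7.62%), and with median-of-ratios factors 3237 higher (6.78%) and 1892 lower (3.96%). The lean towards one direction therefore turned with the scaling: 54.2% of calls were higher with TMM, 34.9% with total counts and 63.1% with median-of-ratios factors. Because scaling shifts all ratios alike, the calls shared by all 3 scalings are the smallest list in each direction. These were the 1947 higher calls of total counts (4.08%) and the 1892 lower calls of median-of-ratios factors (3.96%). They made up 70.8% of the higher and 81.4% of the lower TMM calls. That they are nearly even in number depends on which scalings were taken.

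Among intervals wholly beyond 8-fold the higher side led under each of the 3 scalings. Clearing such a limit takes more counts than clearing 2-fold, and the higher calls were the more abundant. With TMM their median was 18.0 FPKM in the library where they were high, against 7.37 FPKM for the lower calls. The part that abundance has in this lead was not tested. An interval wholly beyond 8-fold was found for 168 higher unigenes (0.352%) and 54 lower ones (0.113%) with TMM. With total counts there were 111 higher (0.232%) and 81 lower (0.17%), and with median-of-ratios factors 195 higher (0.408%) and 46 lower (0.0963%). At 4-fold the balance still depended on scaling, with 616 higher (1.29%) and 342 lower (0.716%) for TMM and 427 higher (0.894%) and 564 lower (1.18%) for total counts. Beyond 16-fold there were 40 higher (0.0837%) and 10 lower (0.0209%) with TMM and 26 higher (0.0544%) and 19 lower (0.0398%) with total counts. With total counts, 57.8% of the calls beyond 8-fold were higher (111 against 81), so under that scaling the lead was narrow.

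**Figure D1:**
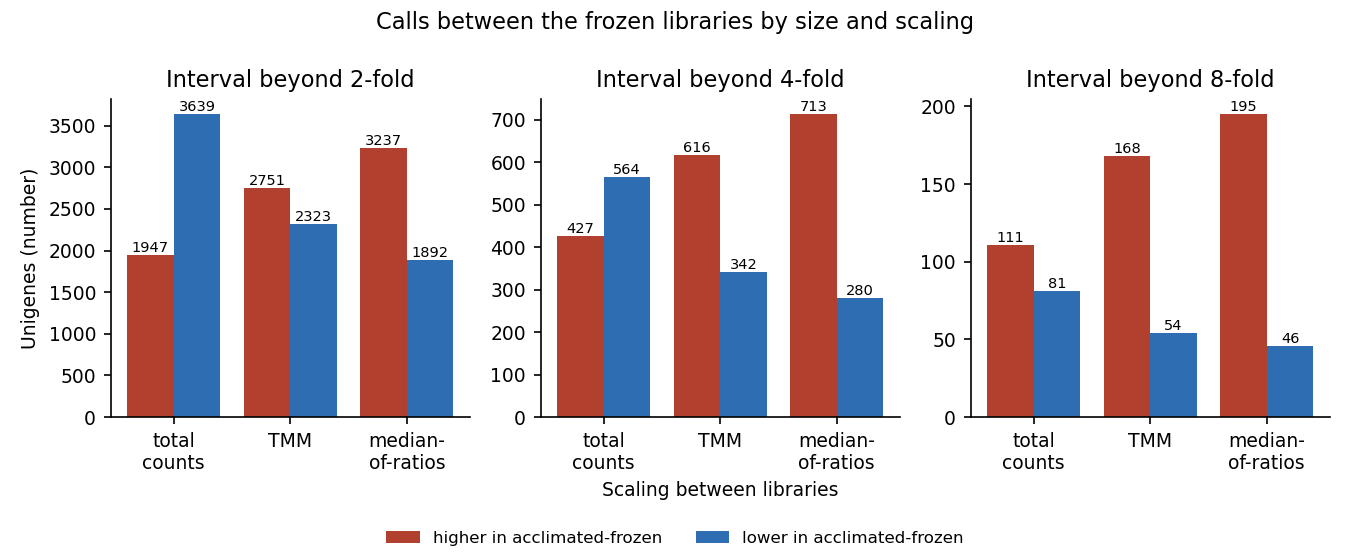
Number of unigenes (y axis) called higher (red) or lower (blue) in acclimated-frozen leaves than in leaves frozen without acclimation, under 3 scalings (x axis), for intervals wholly beyond 2-fold, 4-fold and 8-fold. At 2-fold the taller bar changes side between total counts (1947 higher, 3639 lower) and TMM (2751 higher, 2323 lower), whereas at 8-fold the higher bar is taller under each scaling.

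The sizes of the called differences were similar in each direction. The 2751 higher calls had a median log2 ratio of 2.09, with quartiles of 1.59 and 3.05, and the 2323 lower calls one of -2.27, with quartiles of -3.20 and -1.73. With 3 counts put in place of each 0 the medians were 2.03 and -2.08. Median levels of the higher calls were 18.0 FPKM in acclimated-frozen leaves and 5.07 FPKM in directly frozen leaves. The lower calls had medians of 1.27 FPKM in the former and 7.37 FPKM in the latter. The higher calls were thus the more abundant group in the library where they were high. They held 23.1% of the counts of the acclimated-frozen library and 8.01% of the directly frozen one, whereas the lower calls held 2.55% and 10.03%. The directions differed less with total counts, where the higher calls held 16.8% and 4.83% and the lower calls 4.73% and 15.3%.

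Among the calls shared by all 3 scalings, the 1947 higher ones held 16.8% of counts in acclimated-frozen leaves and 4.83% in directly frozen leaves, and the 1892 lower ones held 2.15% and 8.88%. Before freezing, these 1947 unigenes held 15.7% of the acclimated library and 4.77% of the control, and the 1892 held 3.07% and 8.38%. Each share in a frozen library was thus nearer to the share in the unfrozen library of the same acclimation history than to that in the other unfrozen library.

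The extra counts of the lower calls in the directly frozen library were concentrated in few unigenes, and those of the higher calls were spread more widely. Summed over the 2323 lower calls, the directly frozen library exceeded the other by 74782 CPM, and the 10 unigenes with the largest differences made up 31.5% of this. Summed over the 2751 higher calls, the acclimated-frozen library exceeded the other by 150922 CPM, of which the leading 10 made up 10.7%. To reach 50% of the summed difference took 46 of the lower calls and 168 of the higher calls.

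A pair of unigenes in each direction was singled out by rule from the calls shared by the 3 scalings: the one with the interval farthest from equal levels and the one with the largest difference in CPM. Unigene c94999.graph_c0 (831 bases, from the length implied by count and FPKM) had 1 count in the control, 3994 in acclimated leaves, 7763 in acclimated-frozen leaves and 4 in directly frozen leaves. It was near absent wherever acclimation was missing, with or without freezing. Its log2 ratio between the frozen libraries was 11.04 with TMM (95% interval 9.86 to 13.09), 10.79 with total counts and 11.15 with median-of-ratios factors. At 666 FPKM in acclimated-frozen leaves against 0.336 FPKM in directly frozen leaves, it was abundant in the one and scarce in the other.

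Unigene c97739.graph_c0 (1399 bases) gave the largest gain in CPM on the higher side. It stood at 162 FPKM in the control, 1650 FPKM in acclimated leaves, 2508 FPKM in acclimated-frozen leaves and 363 FPKM in directly frozen leaves. Both acclimated libraries were thus well above both unacclimated ones, and the directly frozen library lay above the control. The counts behind the frozen pair were 49221 and 7288, and the log2 ratio was 3.05 (3.01 to 3.08) with TMM and 2.79 with total counts.

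Unigene c93737.graph_c0 (736 bases) led the lower side. It had 2 counts in the control, 6 in acclimated leaves, 0 in acclimated-frozen leaves and 196 in directly frozen leaves. Only the library frozen without acclimation held it at more than a trace, at 18.6 FPKM. The upper end of the 95% interval of its log2 ratio was -5.43, and -5.32 when scaled by median-of-ratios.

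Unigene c85418.graph_c0 (2001 bases) had the largest loss in CPM. It stood at 4150 FPKM in the control, 1906 FPKM in acclimated leaves, 1214 FPKM in acclimated-frozen leaves and 4074 FPKM in directly frozen leaves. The frozen library without acclimation was close to the control, and both acclimated libraries were lower. Its counts of 34076 and 116942 gave a log2 ratio of -1.49 with TMM, -1.75 (-1.76 to -1.73) with total counts and -1.38 (-1.40 to -1.36) with median-of-ratios factors.

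Few unigenes with 20 or more counts in a frozen library had none in the other, and this count does not use the scaling. Of the 47772 compared, 36 unigenes had at least 20 counts in acclimated-frozen leaves and none in directly frozen leaves, and 65 had the reverse. The 36 had a median of 28 counts and at most 102, or 4.11 FPKM at the median, and with the limit of 3 counts in place of 0 the median unigene was at least 11.4-fold higher in acclimated-frozen leaves. Of these 36, 23 had no count in the control but only 4 had none in the acclimated library, and 3 had none in either. The 65 had a median of 26 counts in directly frozen leaves and at most 196, and the median unigene was at least 7.08-fold lower in acclimated-frozen leaves. The control held at least 1 count for all but 8 of the 65, with a median of 14 counts. The acclimated library did so for all but 18, with a median of 2. Each list was thus better counted in the unfrozen library of the same acclimation history, though at these low counts.

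How often a unigene was called differed with its level before freezing, taken as the mean FPKM of the control and acclimated libraries, which do not enter the ratio. Of the 972 unigenes above 100 FPKM, 218 were called higher (22.4%) and 63 lower (6.48%) with TMM. The higher side led there under each of the 3 scalings, with 158 higher and 95 lower for total counts and 242 higher and 58 lower for median-of-ratios factors. In the class above 1 and up to 10 FPKM the balance lay on the lower side under each scaling, although barely so for median-of-ratios factors: 854 higher and 1255 lower with TMM, 629 and 1916 with total counts, and 1018 and 1032 with median-of-ratios factors. In the class above 10 and up to 100 FPKM, 1071 were higher and 590 lower with TMM, but 712 higher and 989 lower with total counts, so that this balance turned with scaling. The same turn was seen in the classes above 0 and up to 1 FPKM, with 548 higher and 373 lower for TMM and 400 and 583 for total counts, and listed at 0 before freezing, with 60 and 42 for TMM and 48 and 56 for total counts. Those listed at 0 are members only through their counts in the frozen libraries.

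The number of calls also reflects how many counts a class offers, so medians were taken over unigenes with at least 100 counts. The median log2 ratio with TMM was -0.22 over 11580 unigenes above 1 and up to 10 FPKM, 0.10 over 10739 above 10 and up to 100 FPKM, and 0.28 over 972 above 100 FPKM. The medians of the scarcer classes are not comparable with these. They were 0.22 over 456 unigenes above 0 and up to 1 FPKM and -0.43 over 25 listed at 0. Those listed at 0 reached 100 counts through the frozen libraries alone, which enter the ratio. The 456 may lean on those libraries in the same way. Scaling moves all of these medians alike and leaves their order as it is. Under total counts those of the 3 most abundant classes were -0.48, -0.16 and 0.016. In shares of all counts, the unigenes above 1 and up to 10 FPKM held 10.5% of counts in acclimated-frozen leaves and 12.2% in directly frozen leaves. Those above 100 FPKM held 38.5% of the acclimated-frozen library and 37.98% of the directly frozen one, less than in the control (51.0%) or the acclimated library (43.8%).

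**Figure D2:**
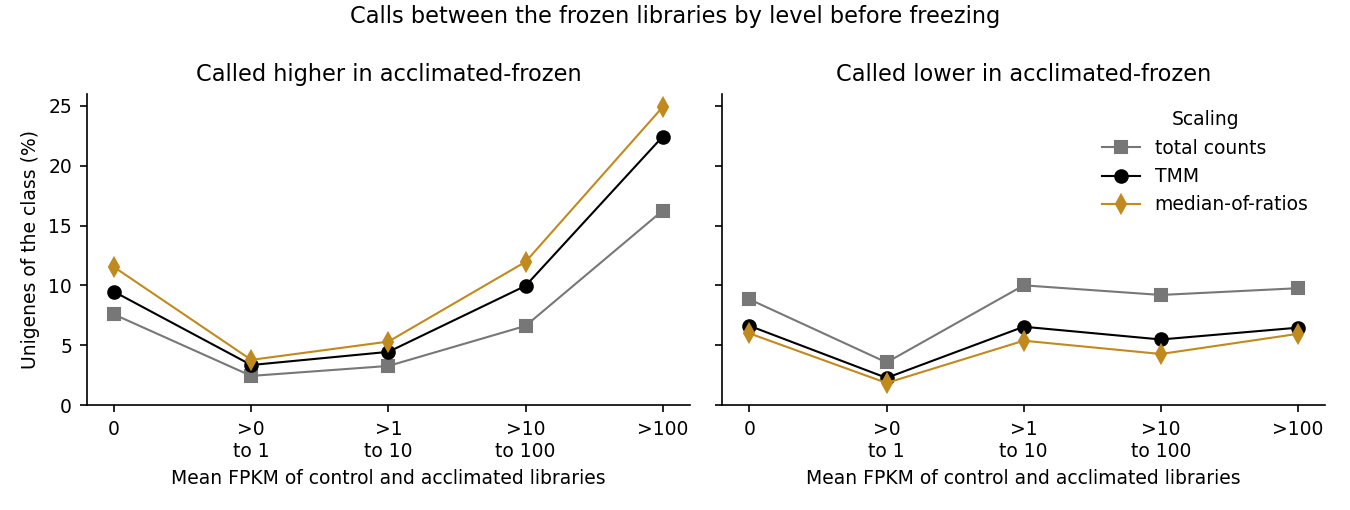
Percent of unigenes (y axis) called higher (left) or lower (right) in acclimated-frozen leaves, by class of mean FPKM over the control and acclimated libraries (x axis), with 1 line for each of 3 scalings. Under each scaling the percent called higher climbs from the class above 0 to 1 FPKM to the class above 100 FPKM (22.4% with TMM), and the percent called lower stays within 1.87 to 10.01% over all classes.

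Length classes also differed. Over unigenes with at least 100 counts the median log2 ratio with TMM was 0.16 for the 3792 of at least 2000 bases, -0.029 for the 10172 of 1000 to under 2000 bases and -0.17 for the 8164 of 500 to under 1000 bases. It was -0.024 for the 1521 of 300 to under 500 bases and 0.20 for the 123 under 300 bases, so both the longest and the shortest stood above those between. Of the 3842 unigenes of at least 2000 bases, 453 were called higher (11.8%) and 210 lower (5.47%) with TMM. With total counts 294 were higher (7.65%) and 334 lower (8.69%). Over all unigenes compared the shares were 5.76% and 4.86% with TMM, and 4.08% and 7.62% with total counts. Nearly all of the longest (3792 of 3842) had at least 100 counts, which makes a call easier. Within the class above 10 and up to 100 FPKM the longest unigenes also leaned more to the higher side than those of 500 to under 1000 bases, with 291 higher and 92 lower against 221 and 188 for TMM, and 186 and 156 against 154 and 297 for total counts.

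The most abundant unigenes of the frozen libraries were largely shared. Of the 100 with the most counts in each, 67 were common to both. The 100 of the acclimated-frozen library held 18.1% of its counts and 17.4% of those of the directly frozen library, and the 100 of the directly frozen library held 19.8% of its counts and 15.6% of those of the other. Of the first 100, 29 were called higher with TMM and 4 lower, and 23 were called higher under all 3 scalings. Of the second 100, 13 were called lower and 3 higher, and 12 were called lower under all 3 scalings. Over all unigenes compared, 5.76% were called higher and 4.86% lower with TMM. Over the 972 above 100 FPKM before freezing the shares were 22.4% and 6.48%. Each list was chosen on a library that enters the ratio, which favours higher calls in the first and lower calls in the second.

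Many of the differences between the frozen libraries had a counterpart before freezing. The ratio of acclimated over control leaves shares no library with the ratio of the frozen pair, so the calls of one can be set beside the calls of the other. With TMM, 3741 of the members were called higher after acclimation than in the control (7.9% of the 47371 compared) and 3146 lower (6.64%). Of the 2751 unigenes called higher in the frozen pair, 1536 (55.8%) were also called higher in the unfrozen pair, and these made up 41.1% of the unfrozen list. Of the 2323 called lower, 909 (39.1%) were also called lower before freezing, and they made up 28.9% of the unfrozen list. Called unigenes also have more counts than the average member, which makes a call in either pair easier. Among unigenes with at least 100 counts, 67.3% of the 2051 higher calls and 47.2% of the 1654 lower calls were called the same way before freezing, where 12.04% of all 23772 were called higher and 8.33% lower. Over the 3 scalings the share of the frozen list ran from 53.6 to 59.5% for the higher and from 34.3 to 41.3% for the lower calls.

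The remaining calls were of several kinds. In the unfrozen pair, 231 of the higher calls (8.40%) and 208 of the lower calls (8.95%) had an interval that lay wholly inside 2-fold, so that a large difference before freezing was not seen at these counts. Another 967 higher (35.2%) and 1151 lower calls (49.5%) remained undecided. Their interval in the unfrozen pair crossed a 2-fold limit, or they had no counts there. Over all members 22.8% lay inside 2-fold and 62.9% were undecided, so both kinds were less frequent among the calls. The undecided higher calls had medians of 0.512 FPKM in the control, 0.959 FPKM in acclimated leaves, 4.58 FPKM in acclimated-frozen leaves and 0.793 FPKM in directly frozen leaves. For the undecided lower calls the medians were 2.62 FPKM, 1.44 FPKM, 0.604 FPKM and 4.75 FPKM, listed alike. Called higher in the frozen pair but lower in the unfrozen pair were 17 unigenes, or 0.618% of the higher calls. Called lower in the frozen pair but higher in the unfrozen pair were 55, or 2.37% of the lower calls. Over all members 6.55% were called lower and 7.79% higher in the unfrozen pair.

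The unigenes inside 2-fold before freezing were next taken by level. They were chosen for near levels in the unfrozen pair and separate levels in the frozen pair, so that contrast follows from the choice. Which frozen library stood away from the unfrozen ones was not part of the choice. The 231 higher ones had medians of 18.6 FPKM in the control and 22.6 FPKM in acclimated leaves, and then 47.8 FPKM in acclimated-frozen leaves against 20.8 FPKM in directly frozen leaves. Among them it was the acclimated-frozen library that stood away from the other 3. The 208 lower ones had medians of 12.1 FPKM in the control and 9.05 FPKM in acclimated leaves, and then 5.09 FPKM in acclimated-frozen leaves against 20.5 FPKM in directly frozen leaves. Here the frozen libraries stood on opposite sides of the unfrozen ones.

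The relation between the pairs was graded. Over unigenes with at least 100 counts, those at least 8-fold higher after acclimation than in the control (a log2 ratio of 3 or more, 558 unigenes) had a median log2 ratio of 2.06 in the frozen pair, and 65.8% of them were called higher there. For log2 ratios of 2 to 3 before freezing (862 unigenes) the median in the frozen pair was 1.54, and for 1 to 2 (2936 unigenes) it was 0.90. On the lower side the medians were -0.95 for log2 ratios of -2 to -1 (2784 unigenes), -1.49 for -3 to -2 (634 unigenes) and -1.91 below -3 (285 unigenes), where 56.5% were called lower. In the outer classes the frozen pair thus differed by less than the unfrozen pair did. The classes were chosen on the unfrozen ratio, which widens it there by choice.

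**Figure D3:**
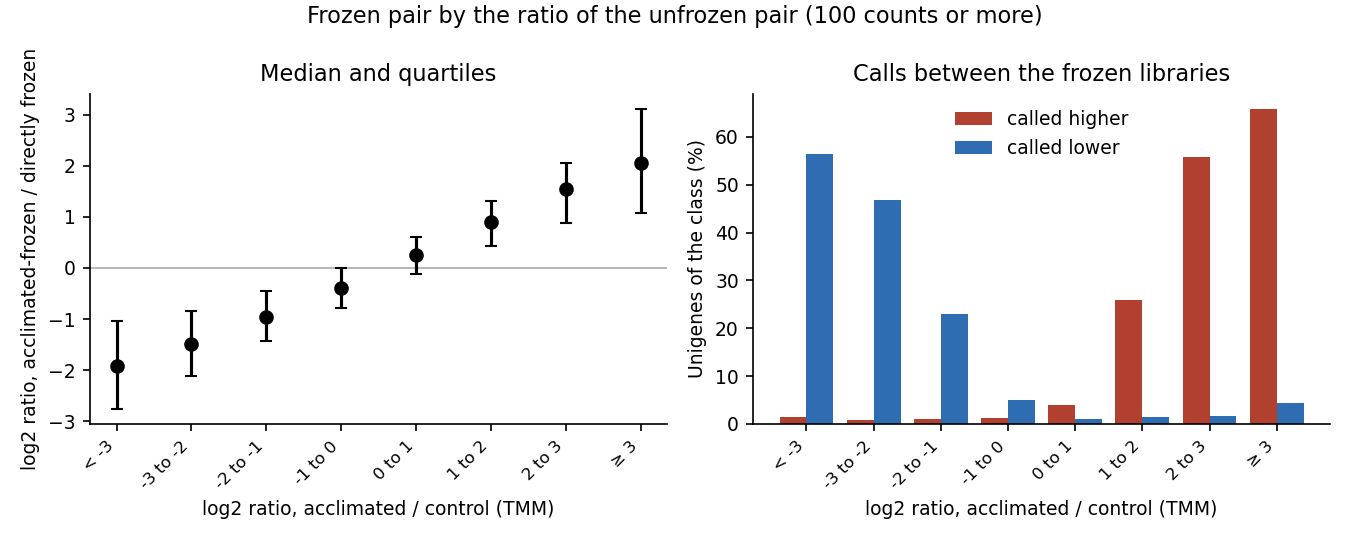
Left, median (point) and quartiles (bars) of the log2 ratio of acclimated-frozen over directly frozen leaves (y axis), by class of the log2 ratio of acclimated over control leaves (x axis), for unigenes with at least 100 counts and TMM scaling. Right, percent of each class called higher (red) or lower (blue) in the frozen pair. The median runs from -1.91 in the lowest class to 2.06 in the highest.

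Over all unigenes with at least 100 counts the frozen libraries differed slightly less than the unfrozen ones did. The interquartile range of log2 ratios was 1.23 in the frozen pair and 1.38 in the unfrozen pair, and the range from the 5th to the 95th percentile was 3.45 and 3.99. Neither range depends on the scaling.

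The unfrozen libraries were next placed relative to the frozen ones. On the log2 scale of TMM-scaled counts, the control was nearer to the directly frozen library than to the acclimated-frozen one for 2450 of the 2751 higher calls (89.1%) and for 1914 of the 2323 lower calls (82.4%). The acclimated library was nearer to the acclimated-frozen one for 1954 of the higher calls (71.0%) and 1661 of the lower calls (71.5%). With total counts or median-of-ratios factors these 4 shares lay within 81.5 to 90.04% for the control and within 70.3 to 73.04% for the acclimated library. For the control, 6.18% of the higher and 5.73% of the lower calls lay close to midway, within 0.4 to 0.6 of the distance. For the acclimated library these shares were 8.29% and 17.3%, so its placing is the less certain one. None of the placings was taken over all members. Whether the called unigenes differ from the rest in this was not tested.

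Taking both placings together, the commonest pattern set each unfrozen library nearer the frozen one of the same acclimation history. It does not require a difference of 2-fold before freezing. The shares of the patterns over all members were not taken either. For 1688 of the higher calls (61.4%) the control lay nearer the directly frozen library and the acclimated library nearer the acclimated-frozen one. Their medians were 5.56 FPKM in the control, 25.1 FPKM in acclimated leaves, 23.6 FPKM in acclimated-frozen leaves and 6.78 FPKM in directly frozen leaves. The same pattern held for 1322 of the lower calls (56.9%), with medians of 9.21 FPKM in the control, 2.49 FPKM in acclimated leaves, 1.90 FPKM in acclimated-frozen leaves and 9.48 FPKM in directly frozen leaves. That each frozen median lies near the unfrozen one of the same acclimation history follows from how the group was chosen.

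The second pattern set the acclimated-frozen library apart from the other 3. It held 762 of the higher calls (27.7%), with medians of 0.701 FPKM in the control, 1.53 FPKM in acclimated leaves, 2.69 FPKM in directly frozen leaves and 11.1 FPKM in acclimated-frozen leaves. The group medians were thus higher after each cold treatment on its own than in the control. The pattern also held 592 of the lower calls (25.5%). Their medians were 4.12 FPKM in the control, 2.20 FPKM in acclimated leaves, 4.10 FPKM in directly frozen leaves and 0.497 FPKM in acclimated-frozen leaves. That acclimated-frozen leaves had the highest median among the higher calls and the lowest among the lower calls follows from how the groups were chosen.

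The third pattern set the library frozen without acclimation apart, which again follows from how the groups were chosen. In 266 of the higher calls (9.67%) that library was the low one, at a median of 1.83 FPKM against 5.22 FPKM in the control, 9.24 FPKM in acclimated leaves and 8.40 FPKM in acclimated-frozen leaves. In 339 of the lower calls (14.6%) it was the high one, at 9.10 FPKM against 0.905 FPKM in the control, 0.988 FPKM in acclimated leaves and 1.35 FPKM in acclimated-frozen leaves. The last arrangement, with the control nearer the acclimated-frozen library and the acclimated library nearer the directly frozen one, held 35 of the higher (1.27%) and 70 of the lower calls (3.01%).

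**Figure D4:**
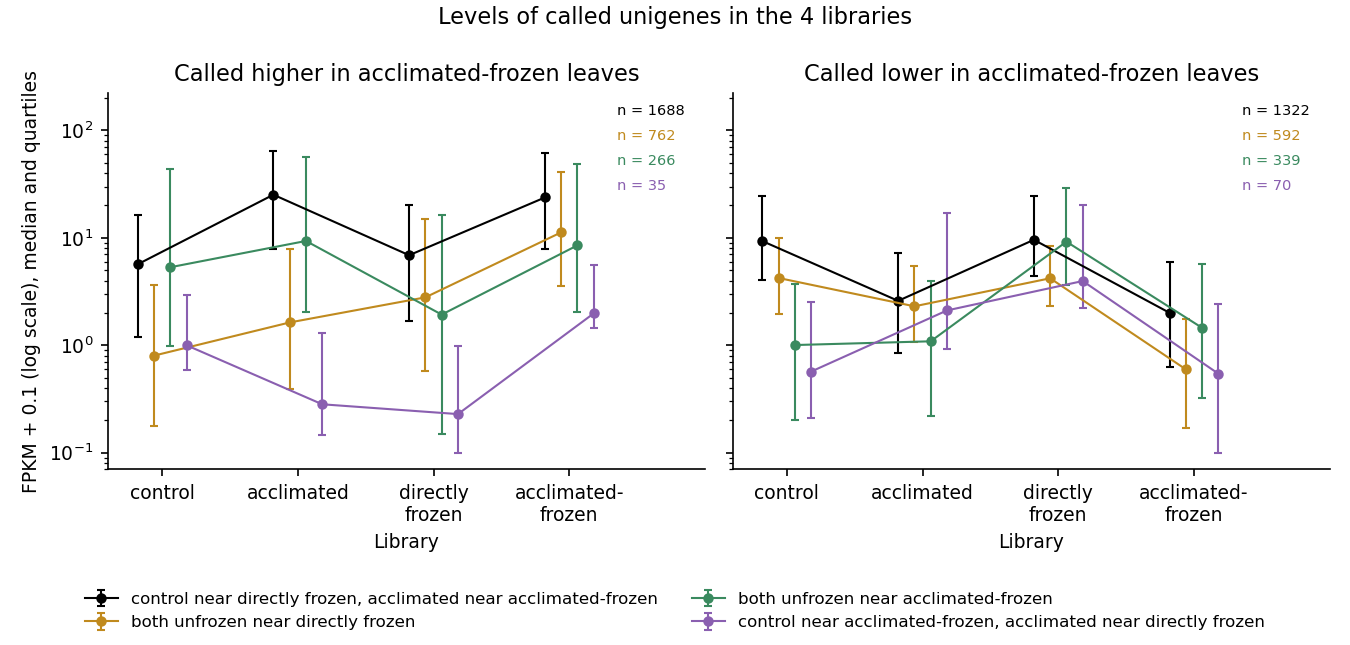
Median and quartiles of FPKM + 0.1 on a log scale (y axis) in each of the 4 libraries (x axis) for unigenes called higher (left) or lower (right) in acclimated-frozen leaves, grouped by which frozen library the control and the acclimated library lay nearer to on TMM-scaled counts. In the largest groups (1688 higher and 1322 lower calls, black) each unfrozen library lies nearer the frozen one of the same acclimation history. The yellow and green groups set a single frozen library apart.

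The limit of depth was set by the scarce unigenes. With no count in the other library, at least 8 counts were needed for a higher call and 11 for a lower one with TMM, and 7351 members (15.3%) had fewer than 8 counts over both frozen libraries and could not be called. For those unigenes a difference was not detectable at this depth. Near-identical gene copies, common in this plant, may share reads in ways the table does not show.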

How the data were processed

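RNA was taken from leaves with Trizol and libraries followed standard Illumina protocols, per the labels' protocols, with 1 library for each of 4 treatments. Counts per unigene were deposited by the authors as whole numbers, not normalized. The deposited FPKM of a unigene is its count over the library total and over a length that does not vary between libraries (to within 2.04e-08). These lengths had a median of 734 bases among the members (201 to 14975). Bowtie 0.12.2, Cufflinks and the mouse build mm8 are named in the submitters' processing notes, and their role for this plant, the assembler, the counting rule and the use of strand are not given in the sources used here. No genome was used, so no coordinates or sequences are printed.

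Columns were tied to samples by title. Scaling factors came from all 93837 unigenes: TMM (edgeR 4.0.16, R 4.3.3; 0.928 for the acclimated-frozen and 1.11 for the directly frozen library), total counts, and median-of-ratios factors over unigenes counted in all 4 libraries. Ratios were given exact 95% intervals from the binomial share of both counts (scipy 1.17.1), log2 ratios used a prior count of 0.5, and calls needed the whole interval beyond 2-fold. With 1 library a side no count model was fitted. Unigenes under 10 counts, 45833 in number, held 0.318% of all counts. The interval rule was tested on simulated data. Identifiers were named by rule, at most 2 per direction: among calls shared by the 3 scalings, the interval farthest from equal levels and the largest CPM difference. Members, classes and rules were chosen with earlier results of these data known. The placing of the unfrozen libraries, the thinning and the share of identifiers with a common component number were chosen after seeing the data.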

Additional observations from a re-analysis of the deposited data

Results flagged for a closer look

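The ratio of acclimated to unacclimated leaves was called in opposite directions in the frozen and the unfrozen pair for 2 small sets. Whether these effects differ was not tested, since each treatment has 1 library. The sets were chosen on both ratios, so the opposite order of medians within the pairs follows from the choice. Over all members 6.55% were called lower and 7.79% higher in the unfrozen pair with TMM. With TMM, 17 unigenes were called higher in acclimated-frozen than in directly frozen leaves but lower in acclimated than in control leaves. They made up 0.618% of the higher calls, and 10 of them were called so under all 3 scalings. Their medians were 47.4 FPKM in the control, 8.61 FPKM in acclimated leaves, 25.8 FPKM in acclimated-frozen leaves and 6.77 FPKM in directly frozen leaves, so both single treatments stood low. A further 55 were called lower in the frozen pair and higher in the unfrozen pair. They made up 2.37% of the lower calls, and 49 of them were called so under all 3 scalings. Their medians were 1.92 FPKM in the control, 14.5 FPKM in acclimated leaves, 5.27 FPKM in acclimated-frozen leaves and 30.3 FPKM in directly frozen leaves, so the control was the lowest and both single treatments stood above the sequence of both.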

How the results depend on the processing

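The 4 named unigenes kept their direction and their call under each of 4 other scalings. The number called higher (2751) was within 1.5 times of this under 7 alternatives, from 1947 (total counts) to 3740 (upper quartile). It was 10557, 616 and 168 where the interval had to exclude equal levels or lie beyond 4-fold or 8-fold. For the number called lower (2323) these were 11442, 342 and 54, and it was 3639 with total counts and 6617 under a difference of log2(FPKM + 1) of at least 1. The percent of calls that were higher (54.2%) became 34.9% with total counts, 63.1% with median-of-ratios factors, 70.0% with upper quartiles, 48.0% where the interval excluded equal levels, 64.3% beyond 4-fold, 75.7% beyond 8-fold and 31.0% under the FPKM rule, which is scaled by total counts. The median log2 ratio (-0.11) became -0.37 with total counts, -0.0016 with median-of-ratios factors, 0.087 with upper quartiles, -0.19 with no filter on counts, -0.040 at 100 counts or more and -0.045 with a prior count of 3.

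The percent of higher calls also called higher before freezing (55.8%) became 59.5% with total counts, 53.6% with median-of-ratios factors, 51.9% with TMM factors from unigenes of at least 100 counts, 67.3% at 100 counts or more, 65.9% where intervals excluded equal levels and 48.8% beyond 8-fold. For the lower calls (39.1%) these were 34.3%, 41.3%, 43.5%, 47.2%, 59.3% and 27.8%, and 31.9% beyond 4-fold. With 50 counts required in place of 20, the unigenes absent from a frozen library were 3 and 7 in place of 36 and 65. Over the main results, 36 cases moved beyond the limit set for them and 25 kept within it, the 7 alternatives above included. Over the shares of counts and the named unigenes, 35 moved and 21 kept within it. The share of acclimated-frozen counts held by the higher calls (23.1%) became 16.8% with total counts and 30.5% with upper quartiles. It was 67.5% where intervals excluded equal levels. The causes were not tested. No paired analysis was possible because each treatment has 1 library.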

Other observations

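Some identifiers share a component number and differ in the graph number after it, which marks them as pieces of 1 assembly component. Among unigenes with at least 100 counts, 1114 components held more than 1 such piece, 2303 unigenes in 1269 pairs. The log2 ratio of the frozen pair with TMM had the same sign in 850 of the pairs (67.0%), against 50.1% of all possible pairs of the 23772 unigenes with that many counts. Both pieces were called higher in 63 pairs (4.96%) and both lower in 22 (1.73%), against 0.744% and 0.484% of all possible pairs. Opposite calls were made in 12 pairs (0.946%), against 1.20%. In 246 of the 1269 pairs a single piece was called, for which the share over all possible pairs was not taken. Of the 23772 unigenes, 2051 were called higher and 1654 lower, so pairs with a single call are common among all possible pairs too. Pieces of a component may share reads, so the pairs are not independent measurements.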
